A study of Chrysanthemum x morifolium with 6 samples.

Results

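DELLA proteins are nuclear repressors of gibberellin responses in plants, and their transcripts were measured in salt-treated and control roots of the chrysanthemum cultivar jinba. RNA was sequenced from roots of 1-month-old greenhouse seedlings that had received salt water at 100 mM, with the salt not named in the labels, or purified water (control). Roots were taken 24 h after treatment, from 3 biological replicates of each treatment, which gives 3 salt and 3 control libraries. The series asks how chrysanthemum roots tolerate salt. The features are assembled transcript clusters of a hybrid crop, so a cluster may be a gene, an allele, a copy or a fragment, and no genome position is given.

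A cluster was counted as a DELLA cluster when the authors had placed it in the GRAS family of regulators and its best Swiss-Prot match was described as a DELLA protein. This gave 28 clusters out of 203 GRAS clusters and 10744 regulator clusters. By the gene name of the Swiss-Prot match, 7 were GAI, 13 GAI1, 1 GAIP, 1 RGA2, 5 RGL2 and 1 RGL3. These names say which known protein is most alike, not which chrysanthemum gene is the ortholog.

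Gibberellin is a growth hormone. When it binds its receptor GID1, the receptor grips the DELLA domain at the start of the repressor, and an SCF ubiquitin ligase marks the repressor for breakdown. DELLA proteins carry a GRAS domain and do not bind DNA by themselves. They act by holding or assisting other regulators, among them the PIF, BZR1 and EIN3 factors, the indeterminate-domain (IDD) zinc fingers and the JAZ repressors of jasmonate responses. In Arabidopsis, GAI and RGA restrain the growth of stems and roots, RGL2 restrains seed germination, and salt slows growth in part through DELLA proteins that build up. Much of this control acts on the protein, while the values here are RNA levels alone.

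The label was checked against a second annotation, the KEGG orthology entry for DELLA, which the rule did not use. The entry was present for 17 of the 28 clusters, whose Swiss-Prot match scores ran between 230 and 1914 with a median of 659. It was lacking for 11 clusters, with scores between 135 and 472 and a median of 308. These 11 were all 5 RGL2 clusters, the RGL3 cluster, 2 GAI clusters and 3 GAI1 clusters. The RGL3 cluster (Cluster-59254.0, match score 172) has as its best match in the NR protein collection a nodulation-signaling pathway 2-like protein, another GRAS branch known from legume nodules, so its DELLA label is weak. The RGL2 clusters match RGL1-like, RGL2-like and other database proteins, and the longest, Cluster-71316.169645, a hypothetical protein. Of the GAI and GAI1 clusters without the entry, Cluster-71316.138932, Cluster-91487.0 and Cluster-52795.0 match a putative GRAS family transcription factor. Cluster-71316.276994 matches a hypothetical protein and Cluster-71316.297010 an RGL1-like protein. Names that do not say DELLA leave the label of those clusters less sure as well. The clusters with the entry match lettuce DELLA 1 or DELLA 2, a putative DELLA protein of Artemisia annua, a gibberellin response modulator of Calycadenia, or other DELLA proteins, except that Cluster-71316.176710 matches an unnamed coffee protein. Lettuce, Artemisia and Calycadenia belong, like chrysanthemum, to the daisy family. The deposited Pfam protein domain descriptions name no GRAS or DELLA domain for any of the 28, and most are empty. Cluster-71316.165637 has a penicillin-binding protein domain there, and Cluster-71316.138932 and Cluster-71316.297010 a dioxygenase. A GLE1-like protein is named for Cluster-71316.265142, Cluster-71316.151655, Cluster-71316.177019, Cluster-71316.192204 and Cluster-71316.265141.

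Depth came to 12.8 to 16.1 M fragments (M for mega) in salt libraries and 15.9 to 20.1 M in control libraries. Levels are given in CPM, counts-per-million of that depth after scaling over all clusters, and in FPKM, which also divides by cluster length. Clusters matched in NR to oomycetes, algae or protists took 2.03 to 3.04% of the regulator counts in salt, against 0.356 to 0.383% in control. Clusters matched to fungi in Swiss-Prot, with no organism read from NR, took 1.33 to 2.20% in salt and 0.414 to 0.468% in control. Those with a seed plant match in Swiss-Prot took 82.1 to 86.8% in salt and 91.4 to 91.5% in control. Changes are therefore also given with a scaling over seed-plant-matched clusters alone, which raises the median change over all tested clusters by 0.49 in log2 units. Some root markers also differed in summed FPKM, to which neither scaling was applied. That of SHORT-ROOT, a stele regulator, was 13.2 to 14.8 in salt and 29.0 to 31.2 in control. That of the root cap factor FEZ was 1.01 to 1.29 in salt and 4.25 to 4.78 in control. GLABRA 2, an epidermis factor, summed to 0.620 to 1.30 FPKM in salt and 4.96 to 7.57 in control, and the meristem factor PLT2 to 3.71 to 5.50 and 1.44 to 2.04. WOX5, of the quiescent centre, had 3.24 to 5.45 FPKM in salt and 4.79 to 6.57 in control, with overlapping groups. SCARECROW, an endodermis factor, summed to 22.0 to 33.6 FPKM in salt and 31.7 to 38.0 in control. The root cap factor SOMBRERO had 0.61 to 1.44 FPKM in salt and 3.03 to 3.65 in control, and BEARSKIN2 0 to 0.12 and 0.78 to 1.73. NAC domain-containing protein 7 overlapped, with 0.2 to 0.9 FPKM in salt and 0.23 to 0.87 in control. Of the 21 tested root marker clusters, edgeR called 1 higher and 8 lower, against 23.8% and 29.6% of all tested regulator clusters. Scaled over seed-plant-matched clusters it called 1 higher and 4 lower, against 31.7% and 17.1%. Fewer cells of a type and less RNA per cell cannot be told apart in these bulk roots. The part of the non-plant counts and of the root markers in the results below was not tested.

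Most of the DELLA clusters that could be tested were lower in salt. Enough counts for the test, edgeR's quasi-likelihood test over all regulator clusters with Benjamini-Hochberg adjustment, were found in 21 of the 28. Of these, 16 fell and 1 rose at an adjusted p under 0.05, and 4 did not pass. Several of the 16 share reads with one another (see the groups below), so they are not 16 separate measurements. Of all 5284 tested regulator clusters, 29.6% were called lower and 23.8% higher. The 16 clusters that fell had log2 fold changes between -3.03 and -0.53, and 15 of them fell at least 2-fold, a call that 22.6% of all tested clusters received. The median of the 21 was -1.35, against -0.38 over all tested clusters. Counted by libraries alone, every salt library lay below every control library for 17 of the 21 DELLA clusters and above for 1, against 39.8% and 27.4% of all tested clusters.

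The filter on low counts bears on these numbers. Of the 21, 12 passed it in every salt library, and of those 8 fell and 1 rose. The share of calls among all regulator clusters that passed in this way was not counted. A further 8 passed through the control libraries but not through all salt libraries, and all 8 are among those that fell, so these were tested only because their control level was the higher one. The counts and the median given above include these 8. The remaining tested cluster, Cluster-71316.19249, passed through libraries of both treatments and was not called. The 7 clusters that were not tested held 0 to 7.11 counts in any library, 0.388% of the DELLA counts, and summed to 12.9 counts over the salt libraries and 64.0 over the control libraries.

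The scaling sets how many of the falls are called. Scaled over seed-plant-matched clusters, 9 of the 21 fell and 1 rose, against 17.1% and 31.7% of all tested clusters, and the median was -0.85, against 0.12 over all. A scaling moves all clusters by about the same amount, so the distance of a cluster from the median of all says nothing on which scaling holds. Under the scaling over all clusters 18 of the 21 lay below the median of all tested clusters, and the distances from that median ran between -2.65 and 0.84. Higher calls made up 44.5% of all calls under the first scaling and 64.9% under the scaling over seed-plant-matched clusters.

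**Figure D1:**
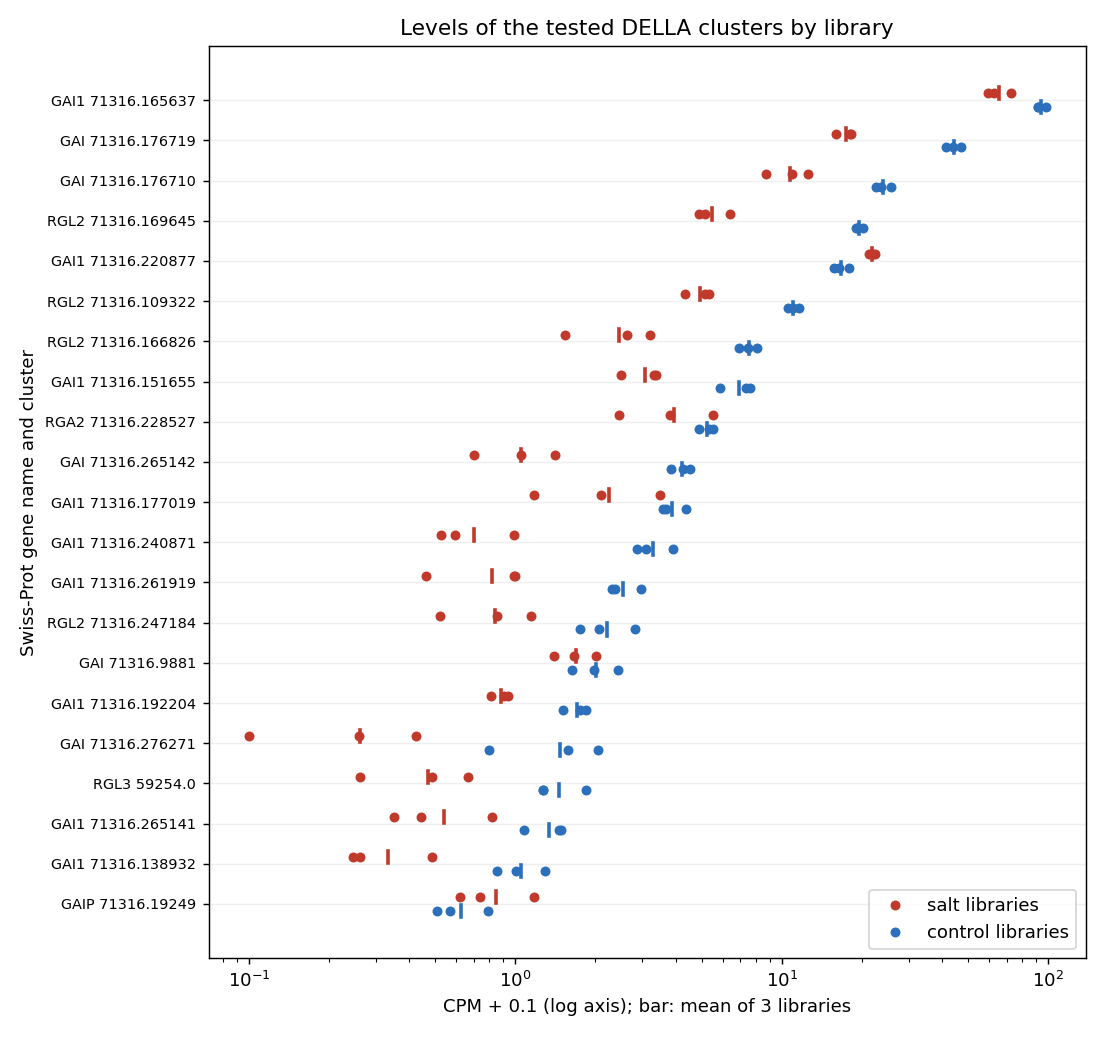
Levels of the 21 tested DELLA clusters in each library, in CPM plus 0.1 on a log axis, with salt libraries in red above control libraries in blue and a bar at each mean. The salt points lie left of the control points for most clusters, and right of them for GAI1 Cluster-71316.220877.

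The 2 longest GAI clusters both fell, and they share reads (group B below), so they are not separate measurements. Both match tomato GAI, the DELLA protein known in that plant as PROCERA. Cluster-71316.176719, with 2162 bases and the highest match score of all 28, had 15.9, 18.1 and 18.0 CPM in salt libraries 1 to 3, and 47.1, 44.0 and 41.1 CPM in control libraries 1 to 3. The groups lie far apart compared with the spread within each. Its log2 fold change was -1.35 (SE 0.10; edgeR adjusted p = 1.7e-04), 2.54-fold lower in salt, and -0.85 under the scaling over seed-plant-matched clusters (edgeR adjusted p = 0.0012). Cluster-71316.176710, of 1609 bases, had 8.61, 12.5 and 10.8 CPM in the salt libraries and 22.5, 25.6 and 23.5 CPM in the control libraries. It fell by 1.16 in log2 units (SE 0.15; edgeR adjusted p = 0.0013), and under the scaling over seed-plant-matched clusters by 0.67 (edgeR adjusted p = 0.015).

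The GAI clusters that match Arabidopsis GAI had fewer counts. Cluster-71316.265142 had 0.598, 1.31 and 0.952 CPM in salt, against 3.74, 4.42 and 4.17 CPM in control, and fell by 2.11 in log2 units (SE 0.36; edgeR adjusted p = 0.0033). It was also called under the other scaling (-1.61; edgeR adjusted p = 0.012). Cluster-71316.276271 had 0.159, 0.324 and 0 CPM in salt and 0.694, 1.94 and 1.47 CPM in control. It gave the lowest fitted log2 fold change of the 21, -3.03, but with an SE of 0.88 (edgeR adjusted p = 0.025) and no call when scaled over seed-plant-matched clusters (edgeR adjusted p = 0.051). Both clusters match the putative DELLA protein of Artemisia annua. Cluster-71316.9881, a fragment of 335 bases, had 1.59 ± 0.309 CPM in salt and 1.91 ± 0.403 CPM in control (SD, n = 3 each), and its libraries overlap. Its log2 fold change was -0.27 (edgeR adjusted p = 0.51), and turned to 0.22 when scaled over seed-plant-matched clusters.

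The GAI1 clusters, named after the grapevine DELLA protein, hold both the most abundant DELLA transcript and the only one called higher. Cluster-71316.165637 matches lettuce DELLA 2 and had 94.6 ± 10.4 FPKM in salt and 147 ± 0.922 FPKM in control (SD, n = 3 each), the highest level per length of the 28 in both groups. In CPM it stood at 72.7, 59.6 and 62.7 in the salt libraries and 91.8, 97.8 and 91.2 in the control libraries. The groups do not overlap, and the change was small: -0.53 in log2 units (SE 0.09; edgeR adjusted p = 0.0032). This fall rests on the scaling, since it was -0.04 (edgeR adjusted p = 0.68) when scaled over seed-plant-matched clusters.

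Cluster-71316.220877, of 1544 bases and with a sacred lotus SLR1-like protein as its best NR match, was the cluster that rose; SLR1 is the DELLA protein of rice. It had 22.4, 21.8 and 21.2 CPM in the salt libraries and 16.3, 17.8 and 15.6 CPM in the control libraries. All salt libraries lie above all control libraries. The log2 fold change was 0.40 (SE 0.09; edgeR adjusted p = 0.010), and 0.89 when scaled over seed-plant-matched clusters (edgeR adjusted p = 3.4e-04). On FPKM it was 16.1 ± 0.401 in salt and 13.2 ± 0.382 in control (SD, n = 3 each), and limma on log2(FPKM + 1) did not call it (0.27, adjusted p = 0.093).

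Further GAI1 clusters were lower in salt. Cluster-71316.240871 had 0.425, 0.492 and 0.890 CPM in salt and 3.00, 3.81 and 2.77 CPM in control. It fell by 2.38 in log2 units (SE 0.38; edgeR adjusted p = 0.0028), and was called under the other scaling too (-1.89; edgeR adjusted p = 0.0072). Cluster-71316.151655 had 2.39, 3.28 and 3.21 CPM in salt and 7.23, 7.53 and 5.77 CPM in control, and fell by 1.20 (SE 0.22; edgeR adjusted p = 0.0043). Cluster-71316.261919 had 0.887, 0.364 and 0.901 CPM in salt and 2.27, 2.20 and 2.86 CPM in control, and fell by 1.74 (SE 0.42; edgeR adjusted p = 0.012). The last 2 were also called when scaled over seed-plant-matched clusters, at -0.70 and -1.26. In all 3 clusters every salt library lay below every control library, as in 39.8% of all tested clusters. Cluster-71316.240871 and Cluster-71316.261919 had passed the filter through the control libraries but not through all salt libraries.

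Calls on the remaining GAI1 clusters were less firm. Cluster-71316.138932 (-1.98; edgeR adjusted p = 0.020), Cluster-71316.265141 (-1.48; edgeR adjusted p = 0.042) and Cluster-71316.192204 (-1.02; edgeR adjusted p = 0.038) fell under the scaling over all clusters and were not called under the other one (edgeR adjusted p = 0.062, 0.15 and 0.24). Cluster-71316.192204 had 0.786 ± 0.070 CPM in salt and 1.60 ± 0.169 CPM in control (SD, n = 3 each). Cluster-71316.177019 had 2.00, 3.39 and 1.08 CPM in salt and 4.27, 3.58 and 3.48 CPM in control. Its salt libraries all lie below its control libraries, yet their spread was wide and the change of -0.81 did not pass (edgeR adjusted p = 0.15).

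RGA2 and GAIP are each represented by 1 short cluster, and neither was called. Cluster-71316.228527, matched to RGA2 of Brassica and to lettuce DELLA 1, had 5.42, 3.72 and 2.36 CPM in salt and 4.77, 5.44 and 5.24 CPM in control. Salt 1 lies within the control range and salt 3 far below it. The log2 fold change was -0.41 (edgeR adjusted p = 0.31) and 0.07 under the scaling over seed-plant-matched clusters. Cluster-71316.19249, matched to GAIP of pumpkin, had 0.638, 0.518 and 1.07 CPM in salt and 0.410, 0.692 and 0.469 CPM in control, with overlapping groups and a change of 0.46 in log2 units (edgeR adjusted p = 0.44).

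All 4 tested RGL2 clusters fell, and none of them carries the KEGG entry for DELLA. Reads were divided among these 4 (group C below), so they are not 4 separate measurements. Cluster-71316.169645, the longest at 1888 bases, had 6.30, 5.06 and 4.78 CPM in salt and 19.0, 18.9 and 20.1 CPM in control, 3.59-fold lower in salt (log2 fold change -1.84, SE 0.14; edgeR adjusted p = 2.0e-04). Cluster-71316.109322 had 5.24, 4.22 and 5.04 CPM in salt and 10.5, 10.9 and 11.5 CPM in control, and fell by 1.18 (SE 0.15; edgeR adjusted p = 0.0011). Cluster-71316.166826 had 1.43, 2.53 and 3.10 CPM in salt and 6.83, 7.40 and 8.01 CPM in control, and fell by 1.66 (SE 0.30; edgeR adjusted p = 0.0041). No salt library came near a control library in any of the 3, and they stayed called when scaled over seed-plant-matched clusters, at -1.36, -0.69 and -1.16. Of all tested clusters, 39.8% had every salt library below every control library. Cluster-71316.247184 had 0.740 ± 0.310 CPM in salt and 2.11 ± 0.549 CPM in control (SD, n = 3 each), and its fall by 1.47 (edgeR adjusted p = 0.031) was not called under that scaling (edgeR adjusted p = 0.11). The RGL3 cluster, with its doubtful label, had 0.566, 0.388 and 0.162 CPM in salt and 1.18, 1.74 and 1.17 CPM in control, and fell by 1.84 (SE 0.53; edgeR adjusted p = 0.025; 0.067 under the other scaling).

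Set apart by the second annotation, the clusters with the KEGG entry gave 1 higher and 10 lower calls among 15 tested, with a median log2 fold change of -1.16. Those without it gave 6 lower calls among 6 tested, with a median of -1.75. Of these, 3 (Cluster-59254.0, Cluster-71316.138932 and Cluster-71316.247184) had passed the filter through the control libraries and not through all salt libraries. The RGL2 clusters among the 6 share reads (group C below), so these are not 6 separate measurements. Over all tested regulator clusters 23.8% were called higher and 29.6% lower. Under the scaling over seed-plant-matched clusters the counts were 1 higher and 6 lower of 15 with the entry, and 3 lower of 6 without it. Of all tested clusters, 31.7% were then called higher and 17.1% lower. Across 18 fits by edgeR, DESeq2 and limma, each with 1 setting changed or 1 library left out, the 9 clusters called lower in every fit were 3 GAI (Cluster-71316.176719, Cluster-71316.176710 and Cluster-71316.265142), 3 GAI1 (Cluster-71316.240871, Cluster-71316.151655 and Cluster-71316.261919) and 3 RGL2 clusters (Cluster-71316.169645, Cluster-71316.109322 and Cluster-71316.166826). Among them Cluster-71316.265142, Cluster-71316.240871 and Cluster-71316.261919 had passed the filter through the control libraries but not through all salt libraries. Cluster-71316.176719 and Cluster-71316.176710 share reads, as do the RGL2 clusters (groups B and C below). Calls in every fit were not counted over all regulator clusters, so no share stands beside the 9. When the scaling over seed-plant-matched clusters was combined with leaving out 1 library, 5 to 8 DELLA clusters were called lower. No count over all regulator clusters was made for that setting.

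**Figure D2:**
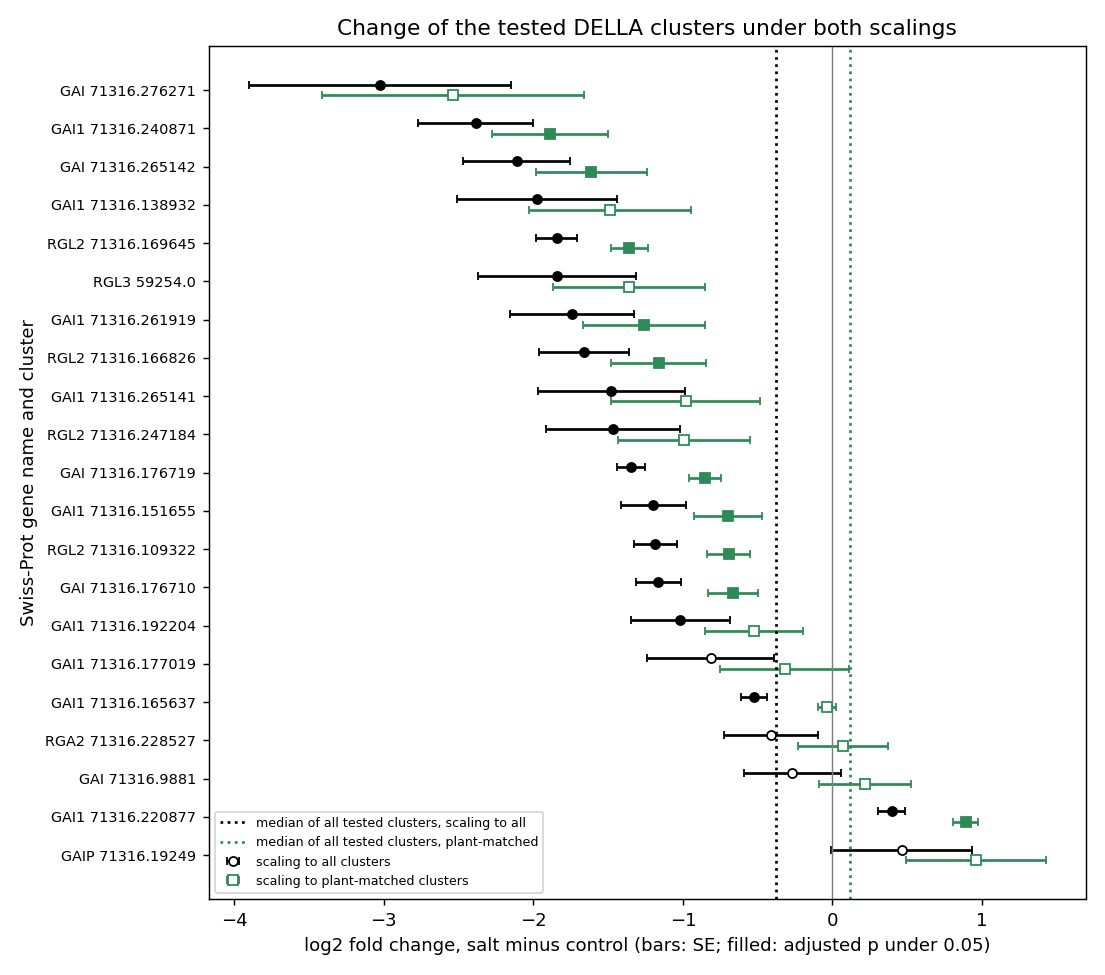
Log2 fold change of each tested DELLA cluster, salt minus control, with bars for the SE. Black circles use the scaling over all clusters, green squares the scaling over seed-plant-matched clusters, filled where the adjusted p is under 0.05, and dotted lines mark the median of all tested clusters under each (-0.38 and 0.12).

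In the authors' deposited table, 10 of the 28 DELLA clusters carry a DOWN call and 0 an UP call, against 10.2% and 13.5% of all 10744 regulator clusters. The log2 ratios of these 10 in the authors' deposited table run between -3.004 and -1.08, and each of the 10 was also called lower here. Cluster-71316.220877 stands in the authors' deposited table with a log2 ratio of 0.48 and a q value of 0.0015 but no call, and Cluster-71316.165637 with -0.45 and 4.4e-06 and no call.

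Many DELLA clusters are not separate measurements. The deposited counts were not whole numbers for 22 of the 28, and 18 of these fall into 6 groups whose counts add up to whole numbers in all 6 libraries, within 0.005 per cluster. Reads were thus divided among the clusters of a group, whose own levels are estimates, while the sum of a group is not affected by how they were divided. Group A joins Cluster-71316.165637, Cluster-71316.228527 and Cluster-71316.261919. Group B joins the tomato-like GAI clusters, Cluster-71316.176719 and Cluster-71316.176710. Group C joins the 4 tested RGL2 clusters, and group D joins Cluster-71316.220877 with the short Cluster-71316.9881 and Cluster-71316.19249. Group E joins Cluster-71316.151655, Cluster-71316.177019 and the untested Cluster-71316.57240, and group F joins Cluster-71316.138932 with the untested Cluster-91487.0 and Cluster-71316.297010. The other 4 with fractional counts, Cluster-71316.265142, Cluster-71316.240871, Cluster-71316.265141 and Cluster-71316.276271, fell into no group. Their levels are estimates too, and the clusters that share their reads were not identified.

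Summed by group, the same order of change appeared. Group B summed to 346, 473 and 356 counts in salt and 1184, 1400 and 1100 counts in control, or 28.0 ± 3.15 CPM and 67.9 ± 2.89 CPM (SD, n = 3 each), a log2 ratio of -1.28. Group C summed to 198, 194 and 165 counts in salt and 652, 781 and 720 in control, or 13.3 ± 0.729 CPM and 39.8 ± 2.15 CPM, a log2 ratio of -1.58. Salt and control libraries are well apart in both groups, and the ratios were -0.78 and -1.09 when scaled over seed-plant-matched clusters.

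Group A summed to 1116, 984 and 816 counts in salt and 1683, 2121 and 1692 in control, or 69.6 ± 8.25 CPM and 101 ± 3.65 CPM (SD, n = 3 each). Its log2 ratio was -0.54, but -0.05 when scaled over seed-plant-matched clusters. Cluster-71316.261919, called lower in every fit, held 12.5, 5.62 and 11.1 of these counts in salt and 38.6, 44.3 and 48.7 in control. All the fits took the deposited division of reads as given, so they do not check it. Group D summed to 352, 369 and 291 counts in salt and 316, 418 and 300 in control, or 24.1 ± 0.716 CPM and 19.0 ± 1.62 CPM, a log2 ratio of 0.35 that became 0.84 when scaled over seed-plant-matched clusters. In FPKM group D showed nearly no difference, with 43.0 ± 4.33 in salt and 42.1 ± 5.03 in control. The count-to-FPKM ratio of these files grows with length only beyond an offset of 236 to 245 bases, so the 302-base and 335-base fragments of group D weigh far more in FPKM than in counts.

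Group E summed to 5.18 ± 1.35 CPM in salt and 10.9 ± 1.19 CPM in control (SD, n = 3 each), a log2 ratio of -1.07. When scaled over seed-plant-matched clusters the ratio was -0.57, and the libraries overlapped (salt 2 at 8.19 CPM, control 3 at 8.13 CPM). Group F held 3, 6 and 3 counts in salt and 24, 26 and 20 counts in control, a log2 ratio of -2.20 from few counts. Under the other scaling it was -1.70. Within group B the share of counts given to Cluster-71316.176719 was 64.8, 59.2 and 62.5% in salt and 67.7, 63.3 and 63.7% in control, so the division hardly differed between treatments. Within group C the share of Cluster-71316.169645 was 45.0, 40.3 and 35.8% in salt and 49.7, 48.6 and 47.4% in control, lower in every salt library. Within group E the share of Cluster-71316.151655 was 52.8, 48.7 and 74.9% in salt and 61.8, 65.9 and 60.6% in control. It spread more widely among the salt libraries, and the calls on that cluster took this division as given.

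**Figure D3:**
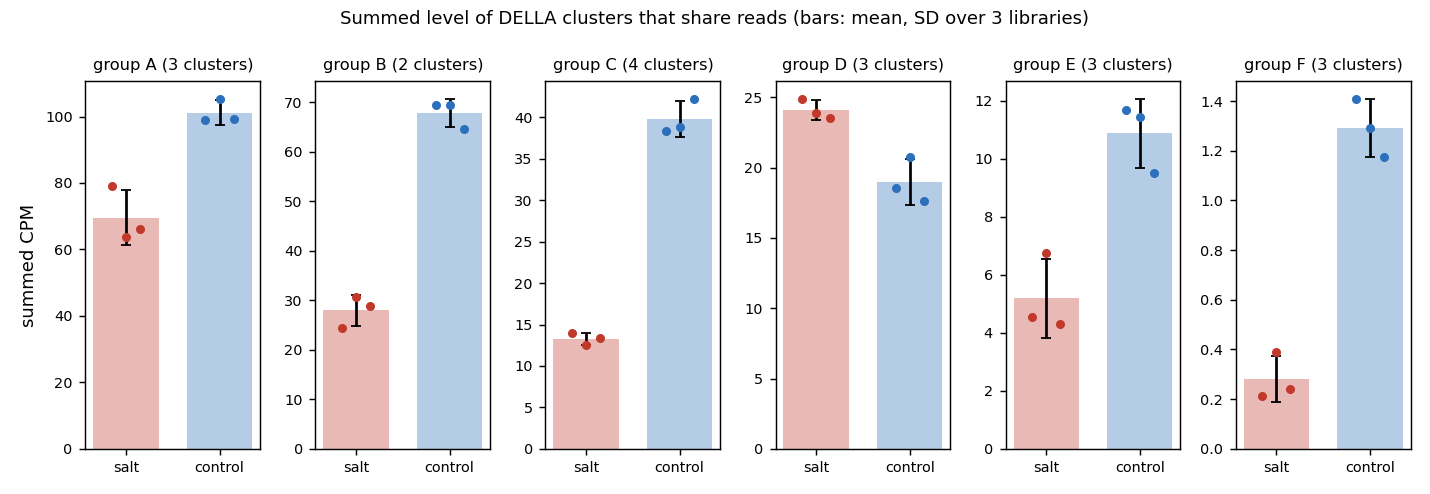
Summed CPM of the 6 groups of DELLA clusters that share reads, with 1 point per library, bars at the mean and error bars for the SD over 3 libraries, salt in red left of control in blue. Groups A, B, C, E and F are lower in salt and group D is higher, in CPM scaled over all clusters.

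A ratio of counts within a library needs no scaling. Group D was set against the other groups in this way after its rise had been seen, so the values are a description. Its counts were 0.315, 0.375 and 0.357 times those of group A in the salt libraries and 0.188, 0.197 and 0.177 times in the control libraries. Against group B they were 1.02, 0.780 and 0.817 times in salt and 0.267, 0.299 and 0.273 times in control. Against group C they were 1.78, 1.90 and 1.76 times in salt and 0.485, 0.535 and 0.417 times in control. In each pair the salt libraries lie wholly above the control libraries, and the mean log2 ratios differ by 0.89, 1.63 and 1.93. Against groups E and F the differences were 1.44 and 2.59.

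**Figure D4:**
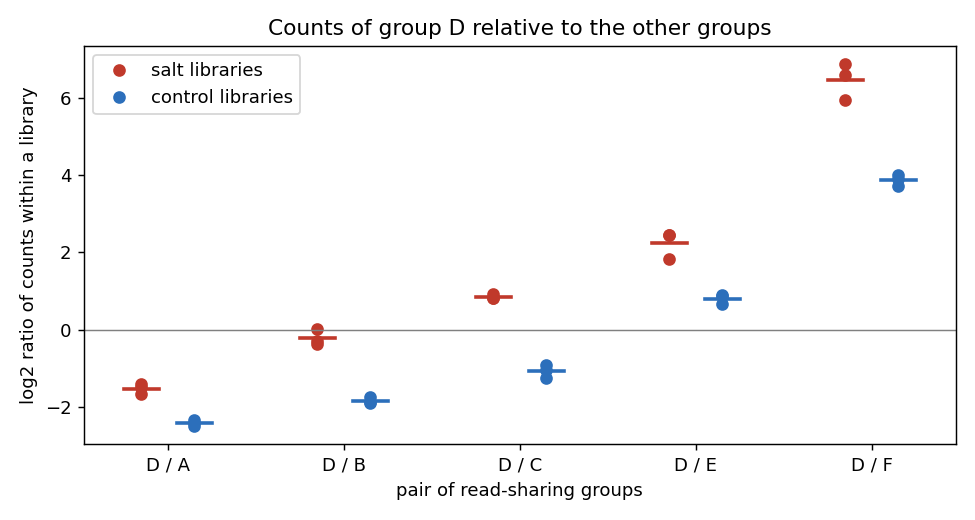
Log2 ratio of the counts of group D to those of each other group within each library, salt in red left of control in blue, with a bar at each mean. Salt libraries lie above control libraries in all 5 pairs, by 0.89 to 2.59 on average.

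The total DELLA level was lower in salt by either unit. All 28 clusters summed to 144 ± 5.54 CPM in salt and 253 ± 8.22 CPM in control (SD, n = 3 each), a log2 ratio of -0.82, and to 214 ± 19.1 and 381 ± 4.57 FPKM. When scaled over seed-plant-matched clusters the sums were 171 ± 2.21 and 214 ± 2.32 CPM, a log2 ratio of -0.32. The make-up shifted with it: group D held 16.8 ± 0.145% of the DELLA counts in salt and 7.48 ± 0.397% in control, and group A 48.2 ± 3.98% and 39.9 ± 0.342%. Group B held 19.5 ± 2.80% in salt and 26.8 ± 0.901% in control, and group C 9.25 ± 0.372% and 15.7 ± 1.21%. Shares of a whole depend on each other, so the rise of some goes with the fall of the rest.

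Ranked by FPKM in salt, Cluster-71316.165637 was followed by Cluster-71316.220877 (16.1 ± 0.401), Cluster-71316.9881 (16.0 ± 3.66), Cluster-71316.177019 (14.8 ± 7.67) and Cluster-71316.228527 (12.7 ± 5.22; SD, n = 3). These 4 do not differ beyond their spread. In control the followers were Cluster-71316.177019 (28.4 ± 3.73), Cluster-71316.176719 (23.8 ± 1.65), Cluster-71316.9881 (20.6 ± 3.23) and Cluster-71316.228527 (18.5 ± 1.06; SD, n = 3), where neighbours again do not differ beyond their spread. Among clusters over 1000 bases, for which FPKM is steadier, Cluster-71316.220877 stood above Cluster-71316.176719 in salt (16.1 ± 0.401 against 8.67 ± 0.635 FPKM) and below it in control (13.2 ± 0.382 against 23.8 ± 1.65 FPKM).

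The DELLA clusters were set beside other GRAS proteins. Of the other 175 GRAS clusters 122 were tested, and edgeR called 11 higher and 45 lower, or 9.02% and 36.9%, against 23.8% and 29.6% of all tested clusters. Their median log2 fold change was -0.47. Under the scaling over seed-plant-matched clusters 28 were higher and 18 lower, or 23.0% and 14.8%, against 31.7% and 17.1%, with a median of 0.02, against -0.85 for the DELLA clusters. Scarecrow-like protein 30 (Cluster-71316.164388) had 31.7 ± 2.08 CPM in salt and 125 ± 5.01 CPM in control (SD, n = 3 each). A PAT1 cluster (Cluster-71316.173081), named after a GRAS protein of phytochrome signalling, had 86.2 ± 2.81 CPM in salt and 52.1 ± 0.775 CPM in control, and rose by 0.72 in log2 units (edgeR adjusted p = 2.6e-04). The GRAS family thus held changes in both directions.

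No cluster of the regulator table bore the name of a gibberellin receptor, of the ligase that marks DELLA proteins or of a gibberellin oxidase, and these were not analysed here. Regulators of gibberellin responses were looked up by Swiss-Prot name, as GAMYB, SCARECROW with SHORT-ROOT and SCL3, CIGR, IDD and PIF clusters. These lists together hold 108 clusters, 63 of them tested, with 3 higher and 26 lower calls by edgeR and a median log2 fold change of -0.79. Scaled over seed-plant-matched clusters, 6 were higher and 16 lower, with a median of -0.32. Over all tested clusters 23.8% were higher and 29.6% lower, and 31.7% and 17.1% under the other scaling, and the counts of each list below stand against these shares. Partners from other hormone pathways, with the JAZ repressors, are not in these sums and are given after them.

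The IDD zinc fingers, which in Arabidopsis bring DELLA proteins to DNA, gave 1 higher and 15 lower calls of 28 tested, or 3.57% and 53.6%, against 23.8% and 29.6% of all tested clusters. When scaled over seed-plant-matched clusters 2 were higher and 13 lower. JACKDAW (Cluster-71316.135457), an IDD protein of the root ground tissue in Arabidopsis, had 21.2 ± 1.13 CPM in salt and 45.0 ± 1.74 CPM in control (SD, n = 3 each) and fell by 1.08 in log2 units (edgeR adjusted p = 1.8e-04). Indeterminate-domain 7 (Cluster-71316.186075) fell by 1.21 (edgeR adjusted p = 2.9e-04) and indeterminate-domain 11 (Cluster-71316.182659) by 1.55 (edgeR adjusted p = 5.1e-04). Indeterminate-domain 9 (Cluster-71316.163546), the most abundant of the list, went the other way, with 169 ± 17.1 CPM in salt and 93.2 ± 4.69 CPM in control, a rise of 0.86 (edgeR adjusted p = 5.8e-04).

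Of the root regulators SCARECROW, SHORT-ROOT and SCL3, 5 of 16 tested clusters fell and 0 rose by edgeR, with 1 higher at an unadjusted p under 0.05 and 0 higher by limma. The lower calls are 31.2% of the list, close to the 29.6% of all tested clusters, and under the other scaling 1 was higher and 1 lower. A SHORT-ROOT cluster (Cluster-71316.118330) had 12.2 ± 0.226 CPM in salt and 19.0 ± 1.19 CPM in control (SD, n = 3 each; -0.64, edgeR adjusted p = 0.0020), which was not called when scaled over seed-plant-matched clusters (-0.15; edgeR adjusted p = 0.26). SCL3, which counters DELLA proteins in Arabidopsis, had its most abundant cluster (Cluster-71316.183742) at 22.9, 32.9 and 21.8 CPM in salt and 15.8, 21.5 and 19.0 CPM in control. All salt libraries lie above all control libraries, by a small margin, and its log2 fold change of 0.46 did not pass (edgeR adjusted p = 0.084) but 0.96 did under the other scaling (edgeR adjusted p = 0.0074).

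The CIGR proteins, GRAS proteins first described in rice as induced by chitin and gibberellin, gave 1 higher and 3 lower calls of 7 tested, and 2 higher and 1 lower when scaled over seed-plant-matched clusters. The most abundant of them, a CIGR1 cluster (Cluster-71316.161524), had 297 ± 19.1 CPM in salt and 292 ± 25.5 CPM in control (SD, n = 3 each), with a change of 0.02 (edgeR adjusted p = 0.84) and, under the other scaling, of 0.52 (edgeR adjusted p = 0.0026). One CIGR1 cluster (Cluster-71316.165278) had 112, 52.6 and 65.0 CPM in salt and 26.6, 24.2 and 41.6 CPM in control, and rose by 1.32 (SE 0.33; edgeR adjusted p = 0.015), with salt 1 far above the rest. The list is thus mixed. Among PIF-type bHLH factors, 1 of 10 tested was higher and 2 lower, both shares below those of all tested clusters. SPATULA, a regulator of carpel and organ growth in Arabidopsis, had a cluster of each kind. Cluster-71316.230469 had 0.244 ± 0.039 CPM in salt and 2.03 ± 0.144 CPM in control (SD, n = 3 each) and fell. Cluster-71316.45388 had 12.6 ± 1.83 CPM in salt and 7.15 ± 0.573 CPM in control (SD, n = 3 each) and rose. A PIF1 cluster (Cluster-71316.248339) was the other one lower (-1.48; edgeR adjusted p = 0.015), and was not called when scaled over seed-plant-matched clusters (edgeR adjusted p = 0.072). A GAMYB cluster (Cluster-71316.323426), matched to the activator of gibberellin-induced genes in cereal seeds, had 0.737 ± 0.173 CPM in salt and 1.72 ± 0.265 CPM in control and fell by 1.19 (edgeR adjusted p = 0.032). It was 1 of 2 tested, and was called neither under the scaling over seed-plant-matched clusters (-0.70; edgeR adjusted p = 0.17) nor with DESeq2 size factors.

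Partners of DELLA proteins in other hormone pathways differed from each other. Over all tested clusters the shares were 23.8% higher and 29.6% lower, and 31.7% and 17.1% under the scaling over seed-plant-matched clusters. Of BZR1 and BES1 brassinosteroid factors 7 of 15 tested were lower and 0 higher, and 1 lower and 1 higher when scaled over seed-plant-matched clusters. Of EIN3-type ethylene factors 5 of 7 were lower and 0 higher, and 3 lower and 1 higher under the other scaling. The only MYC2 cluster turned with the scaling, being called lower under the first (-0.25) and higher under the other (0.24). The JAZ repressors, which bind DELLA proteins in Arabidopsis, were looked up by the family name TIFY. That name also takes in TIFY proteins outside the JAZ group, and the list was not narrowed. Of these TIFY clusters 36 of 56 tested were higher and 1 lower (40 and 1 when scaled over seed-plant-matched clusters). Their median log2 fold change was 1.59, opposite in sign to that of the DELLA clusters under both scalings.

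Finally, the clusters most like the abundant Cluster-71316.165637 in their course over the 6 libraries were found among 872 non-DELLA clusters with a mean of at least 10 CPM, by the root mean square difference of centred log2(CPM + 1). The nearest were VIP1 (Cluster-71316.123829; 0.031), a bZIP factor, ZAT10 (Cluster-71316.164846; 0.034), a zinc finger known from stress responses, and the chromatin-remodelling subunit SNF12 (Cluster-71316.157882; 0.041). WRKY33 (Cluster-71316.141942; 0.044), known from defence, and the GRAS protein SCL9 (Cluster-71316.176781; 0.050) came next. Their log2 fold changes were -0.56, -0.54, -0.48, -0.51 and -0.56 in that order, next to -0.53 for Cluster-71316.165637. Near-equal changes follow from how these clusters were picked. The scaling over all clusters was used, and Cluster-71316.165637 changed by -0.04 when scaled over seed-plant-matched clusters.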

How the data were processed

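Expected counts and FPKM per transcript cluster were deposited by the authors for a table of regulators, with annotation, cluster length and database match scores, and FPKM for all 469059 clusters. Per the submitters' processing notes, Bowtie2 2.0.6 and TopHat2 2.0.12 were used, with no role given. Which assembler and counting tool were used is not given in the sources used here. The authors' deposited table also holds a log2 ratio, a q value and a call per cluster. Of the deposited counts 49.3% were not whole and were rounded.

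The regulator table covers part of each library, so depth was recovered from deposited count over FPKM against length, for clusters of at least 200 counts and 1000 bases. Library sizes were that depth times TMM factors over all clusters, or over the 6609 seed-plant-matched ones. Tests were edgeR 4.0.16 (R 4.3.3) with its default filter, with DESeq2 1.42.0 and limma 3.58.1 (trend, log2(FPKM + 1), at least 1 FPKM in 3 libraries) as alternatives. P-values were adjusted over all tested clusters. The members and lists were chosen with earlier results of these data known. Every DELLA cluster that passed the filter is named. Of each list, at most the 3 clusters with the smallest adjusted p in each direction and the most abundant could be named. The labels do not say that replicate numbers pair the libraries, so the main fit used no pairing and a replicate block was an alternative. The edgeR and limma steps were tested on simulated data. No sequence was used here.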

Additional observations from a re-analysis of the deposited data

How the results depend on the processing

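Of the 1 higher and 16 lower DELLA calls, the higher one was not made in the 3 limma fits (0) or at a 2-fold minimum (0). Beside those, limma had 0, 1 and 0 higher at an unadjusted p under 0.05 (pseudocount 1, pseudocount 0.1, no filter). The lower count was 9 with the scaling over seed-plant-matched clusters and 10 with a replicate block, and 10 to 14 when leaving out 1 library at a time (10 without control 2 or control 3). With both the seed-plant scaling and 1 library left out, chosen after seeing the data, it was 7, 8 and 6 without salt 1, 2 or 3 and 6, 5 and 6 without control 1, 2 or 3. Of the 16, 10 were called in every leave-one-out fit. Those lost in some were Cluster-71316.265141, Cluster-71316.276271, Cluster-59254.0, Cluster-71316.138932, Cluster-71316.192204 and Cluster-71316.247184. Calls kept in every such fit were not counted over all regulator clusters.

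The median log2 fold change of -1.35 was -1.05 with DESeq2 size factors, -1.06 with DESeq2, -1.12 with column sums, -1.46 with no composition factor, -0.85 with the seed-plant scaling, -1.16 with limma and -0.98 with limma and no filter. It ran between -1.47 and -1.26 with 1 library left out, and with the seed-plant scaling as well it was -0.71, -0.91 and -0.75 without salt 1, 2 or 3 and -0.79, -0.79 and -0.78 without control 1, 2 or 3. Lower calls over all regulator clusters were 904 with the seed-plant scaling, against 1564. The median of all clusters moved by 0.29, 0.22, -0.11 and 0.49 under those scalings (DESeq2 size factors, column sums, no composition factor, seed plant).

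Log2 ratios of sums moved as follows. With the seed-plant scaling they were -0.32 for all DELLA clusters, -0.80 for GAI, 0.024 for GAI1 (reversed), 1.01 for GAIP, 0.055 for RGA2 (reversed) and -1.09 for RGL2, against -0.82, -1.29, -0.47, 0.51, -0.43 and -1.58. With no composition factor they were -0.93 for all, -0.58 for GAI1 and -1.70 for RGL2, and in FPKM -1.08 for GAI and -0.74 for GAI1. Cluster-71316.228527 reversed to 0.070 with the seed-plant scaling, and Cluster-71316.9881 to 0.22 there and to 0.02 with DESeq2 and with its size factors; neither was called. Of the other values for single DELLA clusters, 307 kept direction and call, 61 kept direction but lost the call and 1 gained it.

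Same-numbered libraries hardly deviated together (r = 0.043, 0.019 and 0.023 across clusters), though each library correlated best with its own number, a hint from the data and not the design. The cause of these differences was not tested. Clusters under about 1 CPM rest on few counts, and 3 libraries a group limit the precision.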
